A study of Mus musculus with 28 samples.

Results

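A set of genes of the serotonin system was followed by RNA-seq in the mouse brain. The genes were chosen by gene symbol, in a rule that uses no measured value but was set with earlier results of these data known, and make up 10 of the 23038 genes in the deposited tables. *Tph2*, *Slc6a4* and *Fev* are genes of the serotonin neuron itself, and *Htr1a*, *Htr1b*, *Htr2a*, *Htr2c*, *Htr3a*, *Htr5a* and *Htr7* encode serotonin receptors. The study asked what changes when the splicing factor NOVA1 carries the I197V substitution, which gives the mouse protein the amino acid of modern humans. *Nova1* hu/hu mice carried the knock-in, made with CRISPR/Cas9, on both alleles. The knock-in also holds silent changes used for genotyping. *Nova1* wt/wt mice were their siblings from heterozygous parents, and all mice were on the C57BL/6J background. Libraries came from midbrain of E18.5 embryos (6 hu/hu and 6 wt/wt), midbrain of P21 mice (4 and 4) and cortex of P21 mice (4 and 4), which makes 28. No agent was given to any group that the labels name, and the allele is constitutive, so every cell of a hu/hu mouse carried it.

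Serotonin is made by a small population of neurons in the raphe nuclei of the brainstem, whose axons reach almost the whole brain. The enzyme TPH2 hydroxylates tryptophan in these neurons, the transporter encoded by *Slc6a4* takes serotonin back up after release, and the ETS factor encoded by *Fev* sets and maintains the identity of the neuron. Receptor transcripts are made by the target cells and, for some receptors, by the serotonin neuron too. Levels are given as TPM, which divides the reads of a gene by its exon length and scales them to the same total in each library. In bulk tissue a lower level can come from fewer cells of a type or from less RNA per cell, and these cannot be told apart.

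Total counts per library ran from 18550922 to 35047494 in the embryonic midbrain, from 25256326 to 45134998 in the P21 midbrain and from 30423267 to 35643736 in cortex. All 7 serotonin neuron markers had a mean of at least 1 TPM in both midbrain sets, and 3 of 7 did in cortex. The summed level of 5 cortical glutamatergic markers was 1845 to 2047 TPM in cortex and 133 to 159 TPM in P21 midbrain, as the region labels say. The midbrain pieces also carried other tissue. Of 5 hindbrain markers, the 4 Hox genes reached a mean of 1 TPM in the midbrain sets, and the list summed to 5.91 to 19.9 TPM at E18.5 and 3.01 to 13.3 TPM at P21. In cortex the sum was 1.34 to 12.8 TPM, nearly all from the remaining marker, *Egr2* (mean 6.17 TPM, against 0.347 TPM in P21 midbrain), while *Hoxa2*, *Hoxb2* and *Hoxa3* were at 0 in all 8 libraries. All 6 hypothalamic markers reached 1 TPM in both midbrain sets, and their sum was 56.7 to 128 TPM at E18.5 and 341 to 436 TPM at P21, with 6.59 to 37.7 TPM in cortex. The summed level of 7 choroid plexus markers ranged from 44.7 to 3683 TPM in midbrain at E18.5, from 13.2 to 3057 TPM there at P21, and from 1162 to 2210 TPM in cortex. Most of this sum was *Ttr*, with means of 1914, 1120 and 1814 TPM in that order. *Nova1* itself was at 98.4 to 126 TPM in midbrain at E18.5, at 45.7 to 52.7 TPM there at P21, and at 23.0 to 25.5 TPM in cortex. Its difference between genotypes was −0.00640, 0.0511 and 0.0191 on the log2 scale in that order. A knock-in of this kind need not change the level, and counts per gene do not read the codon, so these values check no label.

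The windows around the annotated starts of the 3 serotonin neuron genes are shown because these genes share a cell type but, as given further on, did not share their course with age. Each holds the 250 bases before and the 50 bases after the start, from RefSeq on GRCm38.p6, read 5′ to 3′ on the strand of the gene. Capitals mark the letters AGATAA, a form of the site bound by GATA factors, and TATAAA, the core of the box bound by the general factor TBP. Both were searched on both strands, as was CCGGAA, a core letter string of ETS factor sites. These strings were chosen after the sequences had been seen.
Tph2, chr10:115184973-115185272, minus strand: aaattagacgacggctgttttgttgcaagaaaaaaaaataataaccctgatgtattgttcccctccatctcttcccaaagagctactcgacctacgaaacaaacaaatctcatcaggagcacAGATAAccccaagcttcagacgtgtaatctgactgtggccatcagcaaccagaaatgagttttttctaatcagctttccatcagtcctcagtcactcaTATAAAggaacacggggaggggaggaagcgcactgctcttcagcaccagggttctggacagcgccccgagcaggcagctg
Slc6a4, chr11:76998347-76998646, plus strand: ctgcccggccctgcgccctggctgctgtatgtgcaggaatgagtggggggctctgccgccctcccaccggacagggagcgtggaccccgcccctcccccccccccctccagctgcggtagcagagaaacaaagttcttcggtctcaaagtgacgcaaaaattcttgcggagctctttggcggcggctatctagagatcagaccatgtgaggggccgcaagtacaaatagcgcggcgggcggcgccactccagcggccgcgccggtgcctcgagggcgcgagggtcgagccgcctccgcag
Fev, chr1:74885359-74885658, minus strand: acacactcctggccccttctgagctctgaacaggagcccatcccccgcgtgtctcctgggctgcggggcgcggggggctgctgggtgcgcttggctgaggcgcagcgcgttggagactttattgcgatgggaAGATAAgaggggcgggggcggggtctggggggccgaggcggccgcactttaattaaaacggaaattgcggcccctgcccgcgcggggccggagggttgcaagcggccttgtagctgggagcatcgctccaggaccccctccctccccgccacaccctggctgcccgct

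The *Tph2* window held AGATAA beginning at position −128 and TATAAA at −30 from the start, and the *Fev* window held AGATAA at −118. Positions are counted from the start used for each window, which for *Fev* lies inside the gene and not at its boundary of 74885473 given further on. The *Slc6a4* window held none of the 3 strings, and CCGGAA was in none of the 3 windows shown. AGATAA occurs in 11.2% of the 32851 windows of this length in the RefSeq table, TATAAA in 13.6% and CCGGAA in 14.9%, so a match is common and is only a description. The windows differed in base composition, with a GC content of 47.3% for *Tph2*, 67.7% for *Slc6a4* and 69.0% for *Fev*, against a median of 52.7% over all windows. Entries were found for 9 of the 10 genes, all but *Htr3a*.

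**Figure D1:**
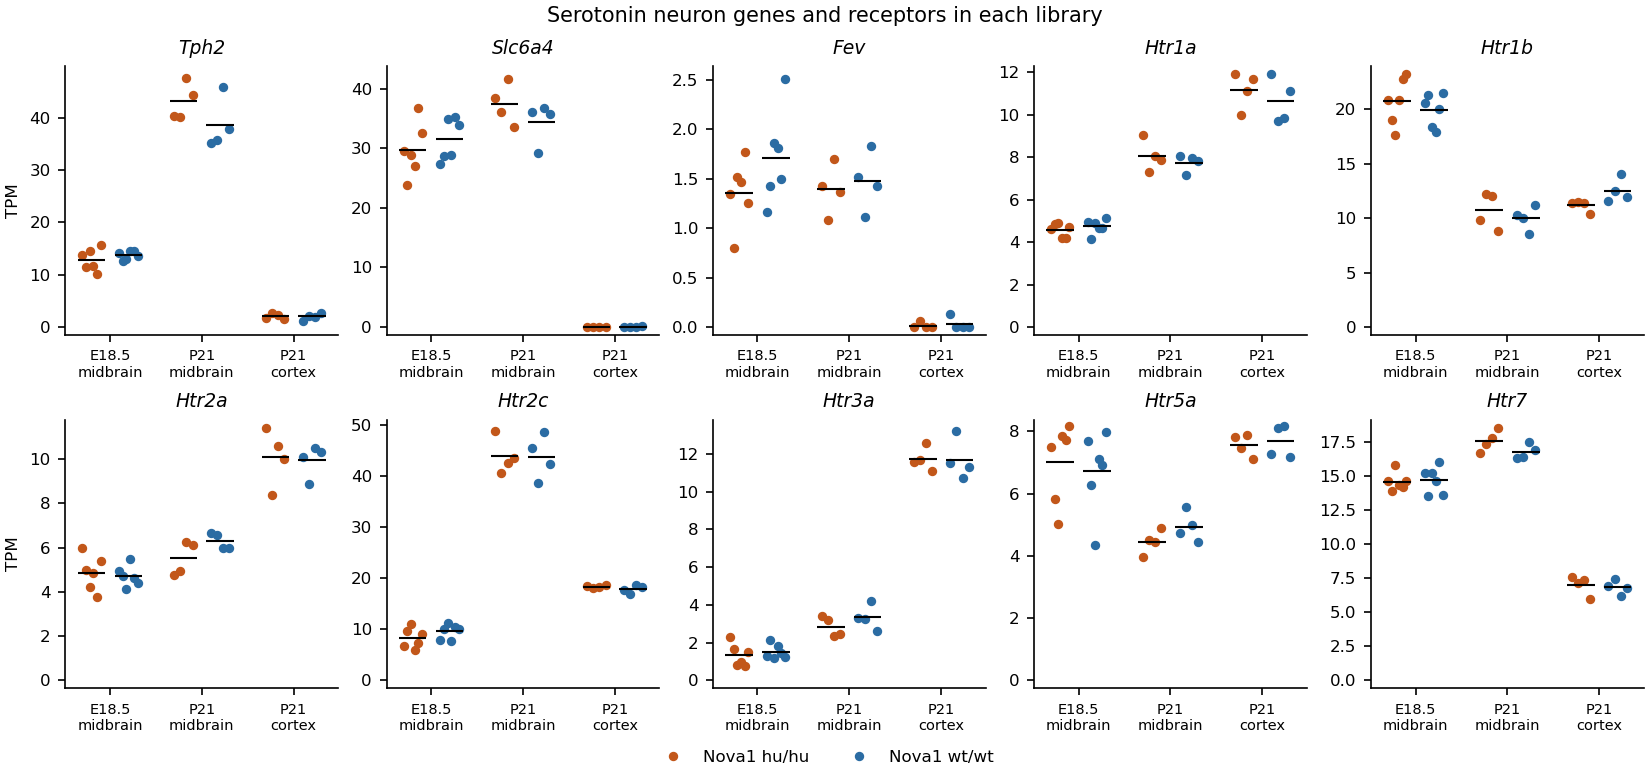
TPM of the 10 genes in each of the 28 libraries (vertical axes, each from 0 and with its own scale) by age and region (horizontal axes). Points are libraries, orange for *Nova1* hu/hu and blue for *Nova1* wt/wt, and the black bar is the mean of each group. *Slc6a4* and *Fev* sit at or next to 0 in the P21 cortex, *Tph2* at 1.21 to 2.71 TPM, and orange and blue points overlap in 29 of the 30 comparisons.

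*Tph2*, the rate-limiting enzyme of serotonin synthesis in the brain, lies on chr10:115078641-115185022 on the minus strand and has 11 exons. Its level in E18.5 midbrain was 10.2 TPM at the lowest, 12.6 TPM at the median and 15.6 TPM at the highest of the 6 hu/hu libraries, and 12.7, 13.8 and 14.6 TPM in the 6 wt/wt libraries. In P21 midbrain the hu/hu libraries were at 40.4, 40.2, 47.5 and 44.3 TPM and the wt/wt libraries at 35.1, 35.7, 45.8 and 37.9 TPM. Every P21 midbrain library was therefore above every E18.5 library. In P21 cortex the hu/hu libraries were at 1.75, 2.71, 2.38 and 1.59 TPM and the wt/wt libraries at 1.21, 2.19, 1.96 and 2.71 TPM, each far below the midbrain.

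*Slc6a4*, the serotonin transporter, lies on chr11:76998597-77032343 on the plus strand. In E18.5 midbrain its lowest, median and highest levels were 23.9, 29.3 and 36.8 TPM over the 12 libraries, and in P21 midbrain the hu/hu libraries were at 38.5, 36.1, 41.7 and 33.5 TPM and the wt/wt libraries at 36.1, 29.2, 36.7 and 35.7 TPM. The levels at both ages overlapped. In P21 cortex *Slc6a4* had 0 to 5 counts per library, 11 counts in all, and 3 of the 8 libraries had none.

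*Fev* (chr1:74881501-74885473, minus strand, 3 exons) was the lowest of the 3 in every set. It had 0.799 to 2.51 TPM in E18.5 midbrain with a median of 1.48 TPM, which rested on 8 to 28 counts per library. In P21 midbrain the hu/hu libraries were at 1.43, 1.08, 1.70 and 1.36 TPM and the wt/wt libraries at 1.52, 1.11, 1.83 and 1.43 TPM. The P21 range fell inside the E18.5 range. In P21 cortex *Fev* had 3 counts in all, with 6 of 8 libraries at 0.

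Midbrain and cortex were compared at P21 over 16 libraries, with genotype as a covariate. The comparison asks how each gene is distributed between midbrain, a part of the brainstem, and cortex, which receives axons of the raphe. A gene is described as called where edgeR's quasi-likelihood test gave an unadjusted p below 0.05 and, after Benjamini-Hochberg adjustment, a p below 0.1. This was a contrast in which most of the genome differed, since 37.9% of the 16345 genes tested were called higher in midbrain and 37.7% lower. With a difference of at least 2-fold added, the shares were 7.81% and 7.56%. All 10 members were called, 5 in each direction, and 6 by at least 2-fold, 5 of them higher in midbrain and *Htr3a* lower. The median log2 difference of the 10 was 0.469, against 6.35e-04 over all genes tested. These counts include *Slc6a4* and *Fev*, which passed the count filter only through the midbrain libraries, and so are given as a description.

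*Tph2* was 18.7-fold higher in midbrain than in cortex (log2 difference 4.22, SE 0.106, adjusted p = 5.17e-21 in edgeR's quasi-likelihood test). *Slc6a4* and *Fev* had to differ, having too few cortical counts to enter the test otherwise. For these, the ratio of pooled counts, scaled to library totals, is the better measure. It was 753 for *Slc6a4* (exact 95% interval 421 to 1510) and 59.6 for *Fev* (20.1 to 292), against 18.9 for *Tph2* (17.2 to 20.7), where the intervals cover counting error only. *Tph2* thus kept a higher cortical level than the transporter of the same neurons. Summed over libraries, there were 9882 *Tph2* and 9081 *Slc6a4* counts in P21 midbrain, or 1.09 *Tph2* counts for each *Slc6a4* count, and 478 and 11 counts in P21 cortex, or 43.5. *Tph2* made up 52.1% of these counts in midbrain (exact 95% interval 51.4% to 52.8%) and 97.8% in cortex (96.0% to 98.9%), again for counting error only. All 8 cortex libraries had *Tph2* counts, between 33 and 85. The source of these counts was not tested, and the tables hold a number per gene, so where in the gene the reads lay was not analysed here.

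Among receptors, *Htr2c* and *Htr7* were higher in midbrain. *Htr2c* (chrX:146962464-147197277, plus strand), a receptor coupled to phospholipase C whose transcript is edited, was at 48.9, 40.6, 42.6 and 43.5 TPM in the P21 midbrain of hu/hu mice and at 45.5, 38.7, 48.6 and 42.4 TPM in that of wt/wt mice. In cortex it was at 18.4, 17.96, 18.3 and 18.7 TPM in hu/hu and 17.6, 16.9, 18.6 and 18.2 TPM in wt/wt libraries. The regions did not overlap, and the difference was 2.30-fold (log2 1.20, SE 0.0413, adjusted p = 2.59e-18 in edgeR). The choroid plexus expresses *Htr2c* strongly. Cortex libraries held 1162 to 2210 TPM of summed choroid plexus markers and P21 midbrain libraries 13.2 to 3057 TPM, and *Htr2c* was at 42.6 TPM in the library with 13.2 TPM. The summed hypothalamic markers were higher in midbrain, as *Htr2c* was, with a median of 382 TPM against 22.8 TPM in cortex. The part of either list in the *Htr2c* difference was not tested.

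*Htr7* (chr19:35958415-36058133, minus strand), which couples to adenylyl cyclase through a stimulatory G protein, was at 16.7, 17.3, 17.8 and 18.48 TPM in hu/hu and 16.3, 16.4, 17.5 and 16.9 TPM in wt/wt P21 midbrain. In cortex its range was 5.998 to 7.60 TPM over 8 libraries. The gap between the regions was wider than the spread within either, at 2.35-fold (log2 1.24, SE 0.0581, adjusted p = 1.50e-15 in edgeR).

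The other 5 receptors were higher in cortex. *Htr3a* (chr9:48899213-48911152, minus strand, 9 exons) encodes a subunit of the only ligand-gated ion channel among serotonin receptors and is a marker of cortical interneurons of caudal origin. It was at 11.6, 11.7, 12.6 and 11.1 TPM in hu/hu and 11.5, 13.2, 10.7 and 11.3 TPM in wt/wt cortex, against 2.34 to 4.23 TPM in P21 midbrain. It was 3.99-fold lower in midbrain (log2 −2.0, SE 0.0982, adjusted p = 3.61e-15 in edgeR), the largest difference among the 7 receptors. A list of 6 other markers of such interneurons summed to 353 to 380 TPM in cortex and 614 to 674 TPM in P21 midbrain. Of these, *Vip* and *6330527O06Rik* were higher in cortex. *Calb2* (mean 76.9 TPM in cortex and 521 TPM in P21 midbrain), *Prox1*, *Adarb2* and *A930038C07Rik* were higher in midbrain. The part of such cells in the *Htr3a* difference was not tested.

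*Htr2a* (chr14:74640874-74706859, plus strand), the excitatory receptor of cortical pyramidal cells at which classic hallucinogens act, was at 8.37 to 11.4 TPM in cortex and 4.76 to 6.64 TPM in P21 midbrain. *Htr5a* (chr5:27841716-27855086, plus strand), an inhibitory receptor, was at 7.12 to 8.17 TPM in cortex and 3.95 to 5.56 TPM in midbrain. Neither gene overlapped between the regions over 8 libraries each, and the log2 differences were −0.84 (SE 0.0802) and −0.78 (SE 0.0639). *Htr1a* (chr13:105443693-105448133, plus strand, 1 exon), which is both the autoreceptor on the cell body of the serotonin neuron and a receptor on cortical and hippocampal cells, was at 9.71 to 11.9 TPM in cortex and 7.15 to 9.04 TPM in midbrain, a log2 difference of −0.54 (SE 0.0585). *Htr1b* (chr9:81628291-81633832, minus strand), the receptor on axon terminals, had the smallest difference. It was at 10.4 to 14.0 TPM in cortex and 8.56 to 12.2 TPM in midbrain, overlapping, with a log2 difference of −0.26 (SE 0.0901, adjusted p = 0.0113 in edgeR). Among hu/hu libraries alone this difference was −0.144 and was not called (adjusted p = 0.350).

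**Figure D2:**
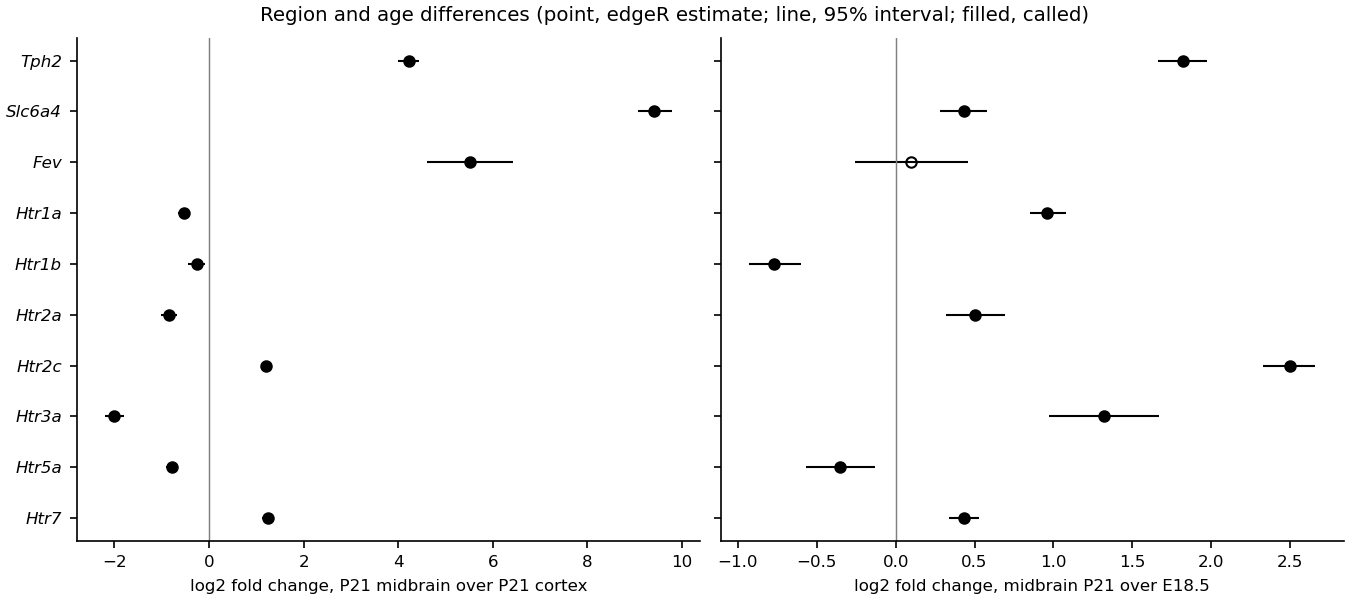
Log2 fold changes of the 10 genes (horizontal axes; genes on the vertical axis) for P21 midbrain over P21 cortex (left, 16 libraries) and for midbrain at P21 over E18.5 (right, 20 libraries), with 95% intervals as lines. Filled points are called. The 3 serotonin neuron genes, *Htr2c* and *Htr7* lie to the right of 0 on the left, and *Fev* is the open point on the right, at 0.10.

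Midbrain at P21 was compared with midbrain at E18.5 over 20 libraries, with genotype as a covariate. Age goes together with everything else that differed between an embryonic and a juvenile dissection. Oligodendrocyte markers summed to 54.7 to 75.7 TPM at E18.5 and 17191 to 19482 TPM at P21, and neuron markers to 2434 to 2742 and 2927 to 3348 TPM. The neuron sum joined opposite changes. Mean *Tubb3* went from 2211 to 742 TPM, *Snap25* from 328 to 2337 TPM and *Rbfox3* from 61.2 to 88.3 TPM. The part of such shifts in the values below was not tested. Of 16330 genes tested, 42.4% were called higher at P21 and 43.3% lower, and with at least a 2-fold difference 15.9% and 14.6%. Of the members, 7 were called higher, 2 lower and 1 was not called, and 3 (*Tph2*, *Htr2c* and *Htr3a*) were higher by at least 2-fold.

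The serotonin neuron genes moved apart with age. *Tph2* rose 3.53-fold (log2 1.82, SE 0.0755, adjusted p = 7.63e-18 in edgeR), *Slc6a4* rose 1.35-fold (log2 0.43, SE 0.0722, adjusted p = 5.38e-06), and *Fev* differed by 0.10 (SE 0.175, 95% interval −0.26 to 0.46, adjusted p = 0.596). The interval for *Fev* leaves out the size of the *Tph2* rise. These fold changes rest on counts scaled with TMM factors, and in mean TPM the members' rises were smaller and their falls larger. *Slc6a4* went from 30.7 to 35.9 TPM and *Fev* from 1.53 to 1.43 TPM, so the *Fev* difference had the opposite sign in TPM. Within a library, *Tph2* stood at 0.440 ± 0.0684 times the *Slc6a4* TPM at E18.5 (SD, n = 12, range 0.279 to 0.516) and at 1.14 ± 0.116 times at P21 (SD, n = 8, range 0.971 to 1.32), so the ratios did not overlap. The ratio of *Tph2* to *Fev* was 9.28 ± 2.70 at E18.5 and 29.1 ± 4.65 at P21, and its ranges of 5.38 to 14.2 and 23.0 to 37.3 did not overlap either. The ratio of *Slc6a4* to *Fev* was 20.97 ± 4.42 and 25.6 ± 3.80, with overlapping ranges.

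*Htr2c* rose most among the receptors. Its lowest, median and highest levels at E18.5 were 5.91, 8.16 and 11.1 TPM in hu/hu and 7.79, 10.1 and 11.3 TPM in wt/wt libraries, all below the lowest P21 library at 38.7 TPM. The rise was 5.64-fold (log2 2.50, SE 0.0815, adjusted p = 4.21e-20 in edgeR). The summed choroid plexus markers had a median of 2347 TPM at E18.5 and 696 TPM at P21, and the summed hypothalamic markers one of 75.0 TPM at E18.5 and 382 TPM at P21. The part of either in the rise was not tested. Most of the choroid plexus sum was *Ttr*, and of these markers *Kl* alone had a higher mean at P21 (3.64 against 0.991 TPM).

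*Htr3a* rose 2.50-fold from a low level, 0.744 to 2.27 TPM at E18.5 on 11 to 35 counts per library, to 2.34 to 4.23 TPM at P21. *Htr1a* rose 1.95-fold, from 4.15 to 5.15 TPM to 7.15 to 9.04 TPM, with no overlap. *Htr2a* and *Htr7* rose by smaller amounts, 1.42-fold and 1.35-fold. *Htr7* was at 13.5 to 16.02 TPM at E18.5, with 16.3 TPM as the lowest P21 library. For *Htr2a* the ages overlapped, at 3.75 to 5.96 TPM and 4.76 to 6.64 TPM.

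*Htr1b* and *Htr5a* went the other way. *Htr1b* fell by 0.77 on the log2 scale (SE 0.0808, adjusted p = 2.15e-09 in edgeR), from 17.6 to 23.2 TPM at E18.5 to 8.56 to 12.2 TPM at P21, with no overlap. *Htr5a* fell by 0.35 (SE 0.107, adjusted p = 0.00405) from 4.35 to 8.16 TPM to 3.95 to 5.56 TPM, with overlap. Among wt/wt libraries alone the *Htr5a* difference was −0.249 and was not called (adjusted p = 0.127).

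The order of the 10 genes by TPM therefore changed with age and region. In E18.5 midbrain *Slc6a4* led at 30.7 ± 3.97 TPM (SD, n = 12), followed by *Htr1b* at 20.3 ± 1.81, *Htr7* at 14.6 ± 0.801 and *Tph2* at 13.3 ± 1.58 TPM. *Slc6a4* and *Htr1b* stood apart from each other and from the genes below, while *Htr7* and *Tph2* overlapped. Below these came *Htr2c*, *Htr5a*, *Htr2a* and *Htr1a*, each overlapping the next, and then *Fev* and *Htr3a* with 1.53 ± 0.427 and 1.43 ± 0.482 TPM, which overlapped each other only. In P21 midbrain *Htr2c* at 43.9 ± 3.62 TPM (SD, n = 8), *Tph2* at 40.9 ± 4.63 and *Slc6a4* at 35.9 ± 3.60 TPM led and overlapped with their neighbours, ahead of *Htr7* at 17.2 ± 0.741 TPM, which stood apart from all others. The ranges of *Htr1b* and *Htr1a* overlapped, as did those of *Htr2a* and *Htr5a* and of *Htr5a* and *Htr3a*, and *Fev* was lowest. In cortex *Htr2c* led at 18.1 ± 0.587 TPM and stood above *Htr1b* (11.9 ± 1.04), *Htr3a* (11.7 ± 0.810), *Htr1a* (10.9 ± 0.932) and *Htr2a* (10.01 ± 0.962 TPM), whose ranges overlapped in turn. *Htr5a* and *Htr7* overlapped below them, and *Tph2*, *Slc6a4* and *Fev* came last. TPM between genes depends on the exon length used. The deposited length of *Htr1b* is 1161 nt where the coding transcripts of GENCODE cover 4724 nt, that of *Htr2a* 2971 against 5606 nt and that of *Htr2c* 6767 against 5057 nt, so the ranks of these 3 could move with another annotation. *Slc6a4*, *Htr1b*, *Htr3a* and *Htr2c* overlap noncoding genes, and the counting is not stated to use strand.

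Another 34 genes of serotonin biology were given as a list of receptors, metabolic genes, transcription factors, RNA editing enzymes and receptor partners, and low-affinity transporters. Between P21 midbrain and cortex, 33 of them were tested, of which 19 were called higher in midbrain, 6 lower and 8 were not called, where 37.9% of all genes were called higher and 37.7% lower, and *Htr3b*, at a mean of 0.0778 TPM or less in each set, was below the count filter. With age in midbrain, 12 of 33 were called higher at P21, 14 lower and 7 were not called, where 42.4% and 43.3% of all genes were called in these directions. By region, *Gchfr*, *Lmx1b*, *Gata3*, *Foxa2* and *En1* had 0 to 24 cortical counts in all, passed the count filter only through midbrain and so had to differ, and the counts that hold them are a description. The median log2 difference of the 33 was 0.414 by region and 0.0267 by age, against 6.35e-04 and −0.0153 over all genes tested.

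Of the 10 metabolic genes, 7 were called higher in midbrain and none lower, with *Gchfr* among the 7 (37.9% and 37.7% of all genes). Of the 7, *Slc18a2*, the vesicular monoamine transporter, was 7.93-fold higher, *Ddc*, which makes serotonin from its precursor, 5.95-fold, and *Gch1*, which starts the synthesis of the cofactor tetrahydrobiopterin, 3.52-fold. *Gchfr*, the regulator of that enzyme, differed by 4.28 on the log2 scale with cortical levels of 0 to 1.07 TPM. *Slc18a2*, *Ddc* and *Gch1* also serve dopamine and noradrenaline neurons, whose markers were present in the midbrain libraries (dopamine list 441 to 509 TPM, noradrenaline list 26.6 to 35.6 TPM at P21). In cortex these lists summed to 145 to 166 and 1.55 to 3.19 TPM. Most of the dopamine sum was *Aldh1a1*, at a mean of 317 TPM in P21 midbrain and 107 TPM in cortex. *Th*, *Slc6a3* and *Pitx3* were also higher in midbrain, while *Nr4a2* was higher in cortex (34.9 against 9.25 TPM). With age *Ddc* rose 3.39-fold and *Slc18a2* 1.23-fold. *Maob*, which breaks down amines and is the form found in serotonin neurons and astrocytes, rose 6.23-fold, while *Maoa* fell by 0.14 on the log2 scale. *Qdpr*, which regenerates the cofactor, rose 4.09-fold. *Tph1*, the peripheral and pineal form of the synthetic enzyme, ranged from 0.0625 to 6.51 TPM among E18.5 libraries and was at 0.749 TPM or less at P21.

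The transcription factors of the list, 10 genes that specify serotonin neurons and their neighbours, were called higher in midbrain in 7 cases and lower in 3, against 37.9% and 37.7% of all genes, and 4 of the 7 are the genes that had to differ. *Gata3*, *En1*, *En2* and *Lmx1b* were at 9.79, 5.52, 3.58 and 4.89 TPM in P21 midbrain and at 0.0787, 0.0313, 0.280 and 0.224 TPM in cortex. *Foxa2* was at 0.874 TPM in P21 midbrain and at 0 counts in all 8 cortex libraries. With age 8 of the 10 fell, 1 rose and 1 was not called, where 43.3% of all genes were called lower and 42.4% higher. The falls were 5.10-fold for *Insm1*, 4.20-fold for *En2*, 2.73-fold each for *Gata3* and *Foxa2*, 2.42-fold for *Lmx1b* and 2.23-fold for *En1*. *Nkx2-2*, which is also expressed by oligodendrocyte precursors, rose 1.61-fold. Only falls of at least 2-fold are named. The interval of *Fev*, −0.26 to 0.46, held none of these and was not set against the smaller falls.

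Of the other receptors, 3 of the 6 tested were called lower in midbrain, *Htr6* by 2.83-fold, *Htr1f* by 2.35-fold and *Htr1d* by 1.20-fold, and none was called higher, where 37.7% of all genes were called lower and 37.9% higher. With age *Htr5b* rose 2.13-fold, *Htr1f* rose 1.85-fold and *Htr4* fell by 0.45 on the log2 scale. Their levels were low, with 7.45 TPM for *Htr6* in cortex as the highest mean of the 7. *Adarb1*, an enzyme that edits the *Htr2c* transcript, was 2.29-fold higher in midbrain than in cortex and rose 7.47-fold with age, in the same directions as *Htr2c*. *Adarb2*, which lacks known editing activity, was also higher in P21 midbrain (mean 11.8 TPM against 6.33 TPM in cortex) and differed by 0.0267 with age. *Slc29a4*, a low-affinity uptake transporter, fell 2.10-fold with age.

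**Figure D3:**
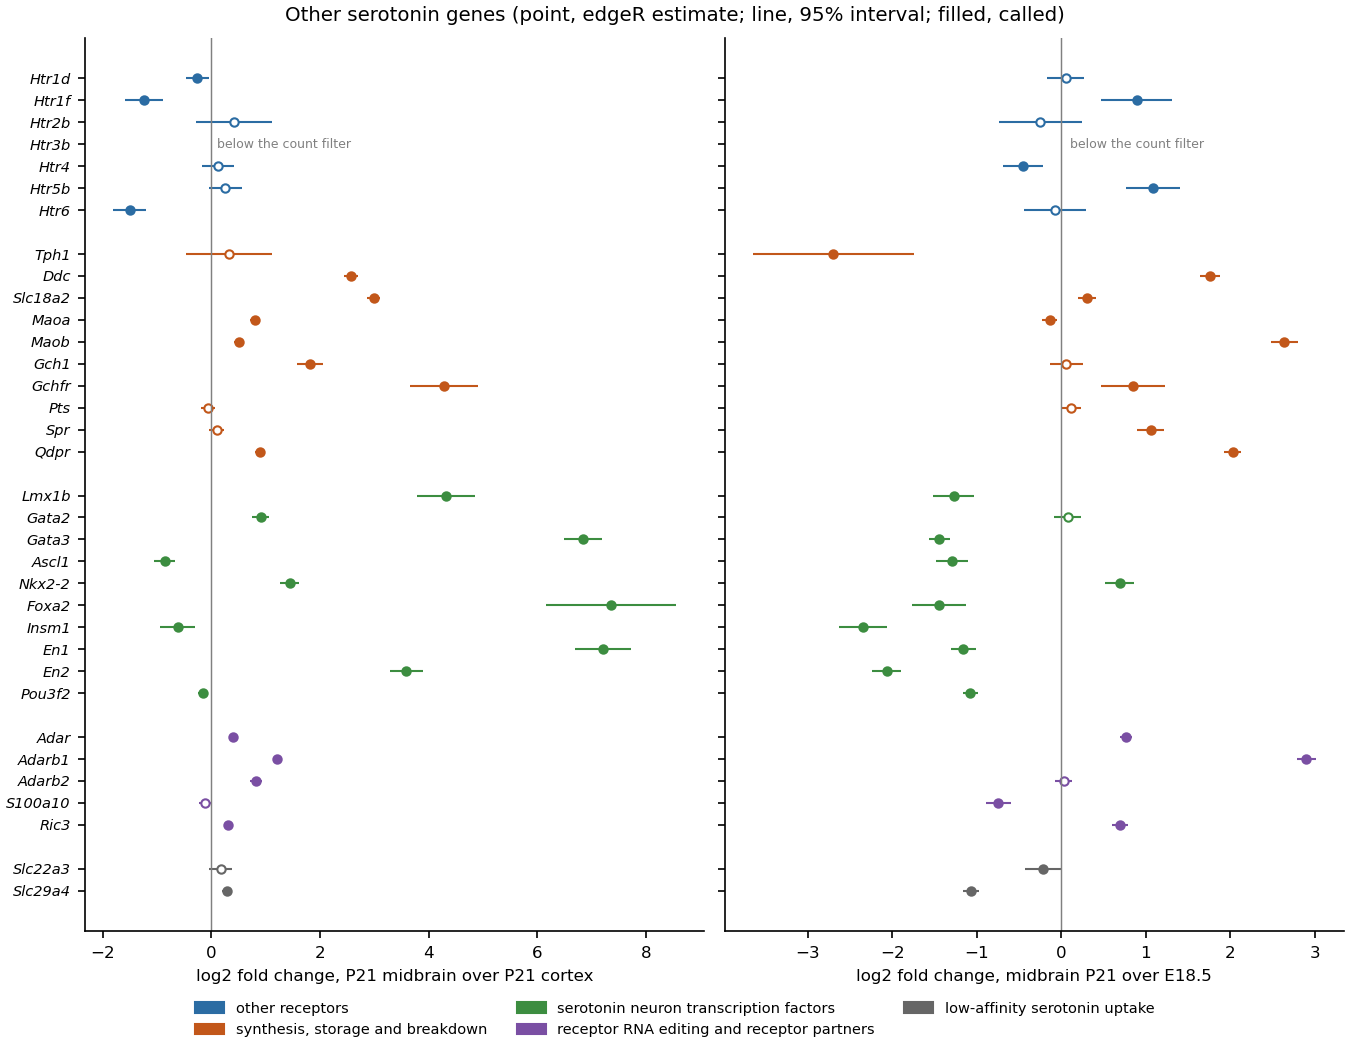
Log2 fold changes of the 34 other serotonin genes (horizontal axes; genes on the vertical axis, coloured by group) for P21 midbrain over cortex (left) and midbrain at P21 over E18.5 (right), with 95% intervals as lines and called genes filled. The transcription factors lie mostly right of 0 by region and left of 0 with age. On the left the points of *Foxa2*, *En1*, *Gata3*, *Lmx1b* and *Gchfr* rest on 0 to 24 cortical counts in all and have no firm size.

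The genotypes were compared within each set, which is the study's own question. None of the members was called by genotype, with 10 tested in midbrain at E18.5, 10 there at P21 and 8 in cortex, where *Slc6a4* and *Fev* were below the count filter. The share called over all genes was 0% in each of the 3 sets. The study reports *Gkn3*, which is not a member, as lower in hu/hu P21 midbrain at these thresholds, and the main fit here did not call it. At an unadjusted p under 0.05, edgeR's quasi-likelihood test had 0 members in each set, where all genes gave 1.29%, 2.67% and 2.85%, and DESeq2 likewise called 0 members and had 0 at an unadjusted p under 0.05. Log2 differences of the members, hu/hu over wt/wt, ran from −0.34 for *Fev* to 0.06 for *Htr5a* in the embryonic midbrain, from −0.22 for *Htr3a* to 0.16 for *Tph2* in the P21 midbrain and from −0.15 for *Htr1b* to 0.07 for *Htr1a* in cortex. The 95% intervals of all members together spanned −0.86 to 0.40, −0.65 to 0.49 and −0.43 to 0.58. The widest were those of *Fev*, *Htr3a* and cortical *Tph2*, the genes with the fewest counts.

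Libraries with the same replicate number in both genotypes deviated together, so the fit with this number as a block is given where it matters. *Tph2* in P21 midbrain was higher in hu/hu than in wt/wt in 4 of 4 pairs, with a log2 difference of 0.16 (SE 0.0820, 95% interval −0.0131 to 0.34, unadjusted p = 0.0675, adjusted p = 1). With the block it was 0.17 (SE 0.0515, unadjusted p = 0.00443, adjusted p = 0.892), in a fit where 4.60% of all genes had an unadjusted p under 0.05. *Htr2c* in E18.5 midbrain was lower in hu/hu in 6 of 6 pairs, at −0.22 (SE 0.125, 95% interval −0.49 to 0.0445, unadjusted p = 0.0972). With the block it was −0.23 (SE 0.0686, unadjusted p = 0.00328, adjusted p = 0.928), where 5.23% of all genes had an unadjusted p under 0.05. Both adjusted values miss the threshold by far. In the same 4 pairs of P21 midbrain libraries *Htr1a* and *Htr7* were also higher in hu/hu in 4 and *Fev* in 0. The share of all genes with the same direction in every pair was not counted. The summed markers of dopamine neurons and of microglia were higher in 4 and those of cortical glutamatergic neurons in 0. Those of serotonin neurons were higher in 3 and lower in 0, and all other lists had pairs in both directions. The sums in hu/hu and wt/wt libraries were 471 to 509 and 441 to 496 TPM for dopamine neurons, 128 to 135 and 120 to 124 TPM for microglia, and 133 to 141 and 143 to 159 TPM for cortical glutamatergic neurons. Their part in the *Tph2* difference was not tested. Most of the dopamine sum was *Aldh1a1*. In the 6 pairs of E18.5 libraries the summed choroid plexus markers were lower in hu/hu in 4, with a median of 1668 TPM in hu/hu and 2347 TPM in wt/wt libraries, and their part in the *Htr2c* difference was not tested. In cortex no member had an unadjusted p under 0.05 with the block, where 5.69% of all genes did. The block raised the genes called in P21 midbrain from 0 to 4, of which none is a member. They were named after their values were seen: *Gabra6*, *Cbln3* and *Mybpc3*, lower in hu/hu, and *Cdr1*, higher.

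Taken gene by gene, the means of log2(TPM + 0.1) were compared with a two-sided exact permutation test in 30 comparisons. The smallest p was 0.0286, for *Htr1b* in P21 cortex, the smallest that 4 against 4 libraries allow, with an adjusted p of 0.750 over the 30. *Htr1b* was at 11.4, 11.5, 11.4 and 10.4 TPM in hu/hu and at 11.6, 12.5, 14.0 and 11.9 TPM in wt/wt cortex, and so was lower in every hu/hu library. This was the only one of the 30 comparisons whose genotypes did not overlap, in a set where the TPM ranges of the genotypes did not overlap for 2.02% of all genes (0.0515% in midbrain at E18.5 and 1.92% there at P21). In edgeR the same difference was −0.15, with a 95% interval of −0.39 to 0.0817 and an adjusted p = 1.

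**Figure D4:**
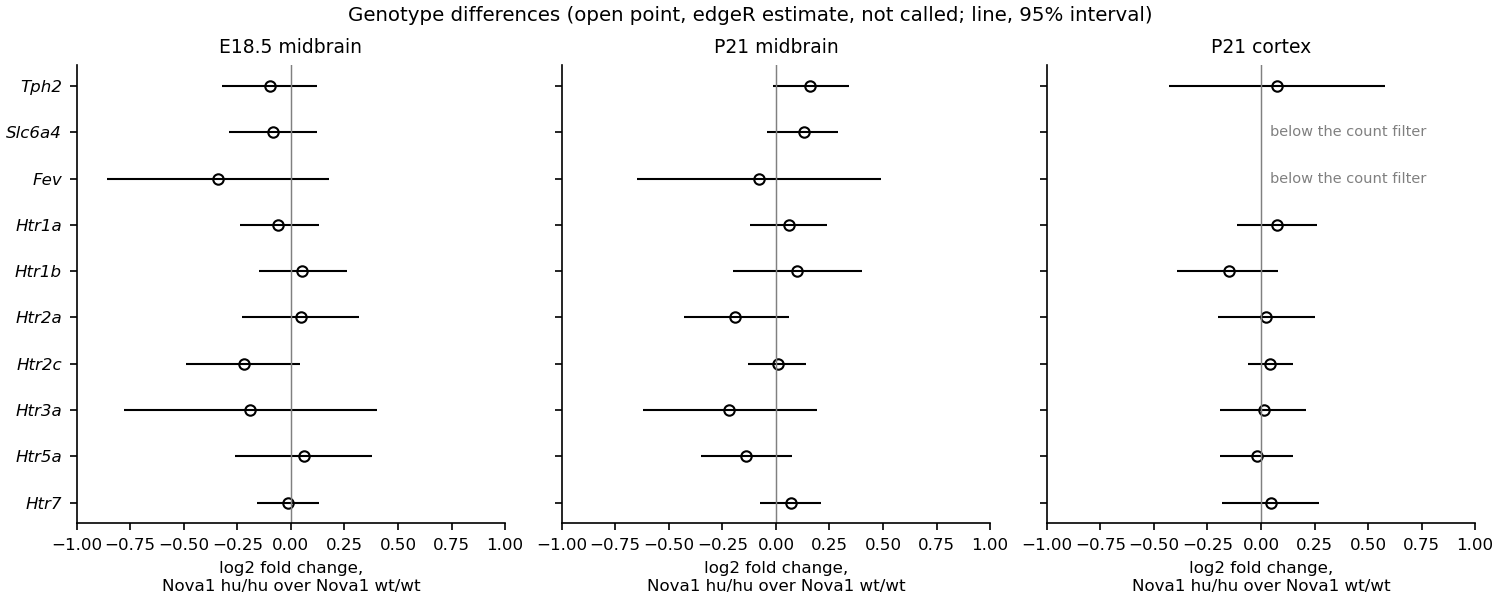
Log2 fold change of each gene, *Nova1* hu/hu over *Nova1* wt/wt (horizontal axes), with 95% intervals, in midbrain at E18.5 (12 libraries), midbrain at P21 (8) and cortex (8). All 28 intervals include 0, and *Slc6a4* and *Fev* could not be tested in cortex.

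Whether the genotype difference itself changed between midbrain and cortex at P21, or between E18.5 and P21 in midbrain, was tested as an interaction. The share of all genes called was 0% for both, with 373 and 303 genes at an unadjusted p under 0.05, and none of the members was among these. The largest interaction with age, leaving aside the sparsely counted *Fev*, was that of *Tph2* at 0.26 (SE 0.147, 95% interval −0.0452 to 0.56, adjusted p = 1 in edgeR). For *Htr2c* it was 0.23 (95% interval −0.11 to 0.56). Of the other serotonin genes, 31, 33 and 26 of 34 were tested by genotype in midbrain at E18.5, midbrain at P21 and cortex, and none of those was called or had an unadjusted p under 0.05.

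Variation among midbrain libraries of the same age was also examined, for 8 relations in all, on log2(TPM + 0.1) with permutation p-values adjusted over the 8. *Slc6a4* and *Fev* varied together in E18.5 midbrain, with Pearson's r = 0.70 (permutation p = 0.0115, adjusted p = 0.0460) and Spearman's rho = 0.59 (p = 0.0448, adjusted p = 0.179, n = 12, permutation test). Without the 2 libraries farthest from the median of *Slc6a4*, hu/hu replicates 2 and 5, r was 0.48 (permutation adjusted p = 0.338), so the relation rests on those libraries. On deviations from the means of each replicate number, with all 12 libraries, r was 0.72 and rho 0.75 (permutation adjusted p = 0.0280 and 0.0286), but such deviations mirror each other within a pair, so these p-values take 6 pairs for 12 points and are too small. In P21 midbrain r was 0.64 and rho 0.64 (exact permutation p = 0.0893 and 0.0962, adjusted p = 0.179 and 0.192, n = 8), and r was 0.21 without 2 libraries. No relation of *Tph2* to the other genes passed the test. With *Slc6a4* in E18.5 midbrain the values were r = 0.07 and rho = 0.12 (permutation p = 0.827 and 0.716, adjusted p = 0.827 and 0.819, n = 12), and with *Fev* r = 0.09 and rho = 0.00 (permutation p = 0.774 and 0.994, adjusted p = 0.827 and 0.994). At P21 the values were r = 0.56 and rho = 0.55 with *Slc6a4* (exact permutation p = 0.143 and 0.171, adjusted p = 0.228 and 0.274, n = 8) and r = 0.54 and rho = 0.40 with *Fev* (exact permutation p = 0.175 and 0.327, adjusted p = 0.234 and 0.436). Without 2 libraries these r were 0.28, −0.17, 0.51 and 0.67 in the order given. Taken within the 4 pairs of same-numbered P21 libraries, 2 relations turned round, with r = −0.82 for *Tph2* and *Fev* and r = −0.54 for *Slc6a4* and *Fev*. The spread of *Tph2* among E18.5 libraries of 1 genotype was 16.3% of the mean in hu/hu and 5.72% in wt/wt. For *Slc6a4* it was 14.9% and 11.4%.

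*Htr2c* followed the choroid plexus markers in E18.5 midbrain, with r = 0.86 (permutation p = 8.00e-05, adjusted p = 6.40e-04) and rho = 0.79 (p = 0.00356, adjusted p = 0.0285, n = 12, permutation test). Without the 2 libraries farthest from the median, hu/hu replicates 4 and 5, r was 0.89 (permutation adjusted p = 0.0138). *Htr2c* was at 5.91 TPM in the library with 44.7 TPM of these markers and at 11.1 TPM in that with 3683 TPM. Most of the sum was *Ttr*, so the relation describes mainly that gene. In P21 midbrain, where *Htr2c* was several times higher, r was 0.65 and rho 0.67 (exact permutation p = 0.0730 and 0.0831, adjusted p = 0.179 and 0.192, n = 8), and r was 0.71 without 2 libraries. The points of each correlation share depth, dissection and replicate number.

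**Figure D5:**
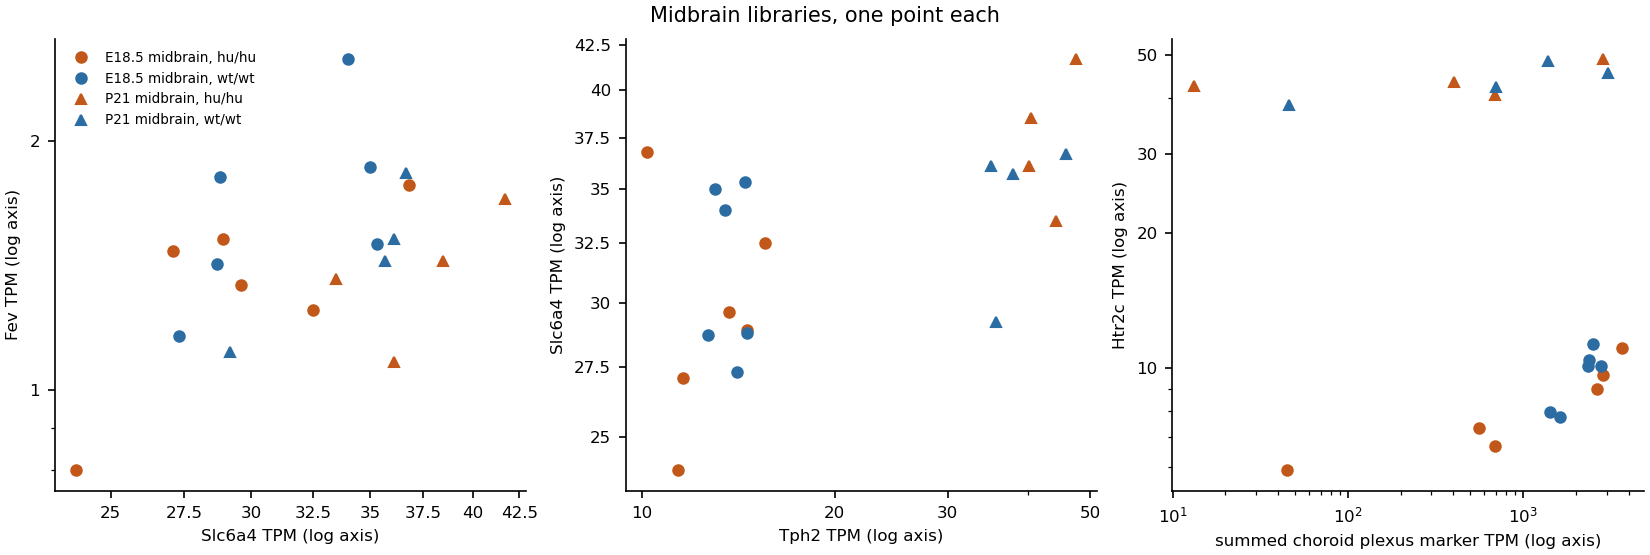
Each point is a midbrain library (circles E18.5, triangles P21; orange hu/hu, blue wt/wt), on log axes of TPM. Left, *Fev* against *Slc6a4*; middle, *Slc6a4* against *Tph2*; right, *Htr2c* against the summed choroid plexus markers. The ages separate on *Tph2* and *Htr2c* and overlap on *Slc6a4* and *Fev*, and E18.5 *Htr2c* runs from 5.91 to 11.3 TPM along the marker level.

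The genes most like each member were sought by Pearson's r of the deviations of log2 CPM from the mean of each age and genotype, over 20 midbrain libraries and 16330 genes. The values are descriptions and carry no test, and with this many genes high values are to be found for almost any gene. For *Tph2* they were *Naa38* (0.81), *Rpl39* (0.79), *Hook1* (0.78), *Ap3s1* (0.78) and *5730469M10Rik* (0.77). None of these is among the serotonin genes listed here. For *Slc6a4* they were *Zfp365* (0.91), *Baalc* (0.88) and *Ntn3* (0.85), and for *Fev* *Fam43a* (0.82), *Ccl12* (0.76) and *Btbd6* (0.75). Of all 16329 genes set against *Fev*, *Slc6a4* ranked 14 at r = 0.71, and no pair of members was higher. For *Htr2c* they were *Prps2* (0.91), *Sgms2* (0.90) and *Col9a3* (0.90), with values of 0.94, 0.93 and 0.95 within E18.5 and 0.69, 0.75 and 0.51 within P21. The leading genes of the other receptors were *Syt14* for *Htr1a* (0.79), *Fam110a* for *Htr1b* (0.88), *Atp5j* for *Htr2a* (0.84), *Sae1* for *Htr3a* (0.83), *Pgk1* for *Htr5a* (0.89) and *Lhfpl3* for *Htr7* (0.80).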

How the data were processed

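The authors extracted RNA from dissected brain regions, selected polyadenylated RNA, sequenced it in paired-end mode, used OLego to align the reads to mm10 and Quantas to count them for each gene. The gene annotation version is not given in the sources used here. Each deposited file lists 23038 genes with their exon length, expected count and RPKM. The deposited expected counts were not whole for 751 to 2715 genes per library and were rounded for the tests. The deposited RPKM values follow from counts, lengths and library totals (largest relative difference 2.27e-13) and were not used further. No libraries were near copies of each other (highest Pearson r of log2 counts 0.9936).

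TPM was computed from unrounded counts and exon lengths. Differences were fitted over all genes with edgeR 4.0.16 (quasi-likelihood test, TMM factors, filterByExpr) in R 4.3.3, two-sided, and called at p under 0.05 and Benjamini-Hochberg adjusted p under 0.1, the thresholds of the study. Genotype fits held only the libraries of that set. The method was tested on simulated counts. Alternatives were DESeq2 1.42.0, the likelihood ratio test, RLE factors, other count filters, an adjusted p under 0.05, a replicate block, 1 genotype only and each library left out. Exact permutation tests and correlations used log2(TPM + 0.1), and a log2 difference with a pseudocount understates changes of low genes. With 12 libraries 100000 resamples were drawn. Intervals on pooled counts are exact Poisson or Clopper-Pearson intervals at 95%, and reads were not marked by molecular identifiers.

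The named genes are the 10 members, a list of 34 other serotonin genes (named where called with at least a 2-fold difference or as an example of their group), *Nova1*, and the genes most like each member by the correlation described. The members and lists were chosen with earlier results of these data known.

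Same-numbered libraries pair the genotypes. Their deviations from the group means correlated with r between 0.256 and 0.497 (midbrain at E18.5), 0.266 and 0.301 (midbrain at P21) and 0.251 and 0.310 (cortex), with medians of −0.094, −0.123 and −0.167 for other numbers. The study states equal numbers of male-female pairs, and gives no other meaning for the number. Between midbrain and cortex the same number did not pair libraries (−0.218 to −0.119), and whether both regions came from the same mice is not stated. Libraries are separate samples by their labels. Where they are not separate mice, p-values measure a spread that may be technical.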

Additional observations from a re-analysis of the deposited data

Results flagged for a closer look

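For each of the 10 genes, the highest and lowest library of each of the 6 groups was set against the others with Dixon's 95% criterion, which marks about 1 in 20 groups by chance. Of 60 groups, 5 held such a library. *Slc6a4* was lowest at 29.2 TPM in replicate 2 of wt/wt P21 midbrain. *Htr1b* was lowest at 10.4 TPM in replicate 4 of hu/hu P21 cortex. *Htr7* was highest at 15.8 TPM in replicate 3 of hu/hu E18.5 midbrain. *Fev* was highest at 0.0554 TPM in replicate 2 of hu/hu and at 0.127 TPM in replicate 1 of wt/wt P21 cortex, which stand for 1 and 2 counts in groups whose other libraries had 0.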

How the results depend on the processing

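In the fits, 341 of 344 fold changes of the members under other settings kept their direction and side of the threshold. The exceptions were *Htr1b* between regions in hu/hu libraries (−0.144) and *Htr5a* with age in wt/wt libraries (−0.249), no longer called, and *Fev* with age in wt/wt libraries, which turned to −0.0296 without being called. With a library left out in turn no call on a member was lost or gained, and 9 genotype estimates that were not called changed sign in at least 1 fit. Their ranges were −0.191 to 0.0413 for *Fev* and −0.0432 to 0.0641 for *Htr2c* in P21 midbrain. In E18.5 midbrain they were −0.0461 to 0.15 for *Htr5a*, −0.0427 to 0.00797 for *Htr7* and −0.0230 to 0.115 for *Htr2a*. In P21 cortex they were −0.104 to 0.242 for *Tph2*, −0.0537 to 0.0224 for *Htr5a*, −0.0430 to 0.105 for *Htr2a* and −0.0259 to 0.0739 for *Htr3a*. The genes called by genotype in P21 midbrain went from 0 to 4 with the replicate block. With the likelihood ratio test and with DESeq2 the number went to 1, *Gkn3*, seen after the fact. Its log2 difference was −0.72 in both, with an adjusted p of 0.0236 (likelihood ratio test) and 0.0714 (DESeq2). The study reports *Gkn3* as lower in hu/hu P21 midbrain with edgeR at these thresholds, and the main fit here did not call it. The replicate block changed no call on a member. Between regions, where the number does not pair libraries, the block moved the genes called from 12363 to 12296. All 60 repeats of the permutation tests kept direction, and none was called after adjustment, as in the main tests. The unadjusted permutation p of *Htr1b* in P21 cortex went from 0.0286 to 0.0571 with CPM and TMM factors. For correlations, the relation of *Tph2* and *Slc6a4* at E18.5 was −0.01 on deviations from genotype means and −0.08 on deviations from replicate number means (the replicate block). That of *Tph2* and *Fev* was −0.06 and −0.16 in the same order, and −0.17 without 2 libraries. That of *Slc6a4* and *Fev* at E18.5 was 0.68 on deviations from genotype means and 0.48 without 2 libraries, where it no longer passed, and 0.72 with the replicate block, where it passed. In P21 midbrain the replicate block gave −0.82 for *Tph2* and *Fev*, −0.54 for *Slc6a4* and *Fev* and 0.84 for *Htr2c* and the choroid plexus markers, which then passed. Deviations under the block mirror each other within a pair, so they rest on 4 pairs at P21 and 6 at E18.5. The cause of these changes was not tested. *Fev* in midbrain and *Htr3a* at E18.5 rest on 8 to 35 counts per library, so small differences in them were not detectable.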

Other observations

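The P21 midbrain libraries differed in their content of cerebellar granule cell markers. The sum of 3 such markers was 2.22 to 6.63 TPM in hu/hu and 2.17 to 17.2 TPM in wt/wt libraries. With the replicate block, *Gabra6* (log2 difference −1.61, SE 0.242, adjusted p = 0.0388 in edgeR) and *Cbln3* (−1.21, SE 0.190, adjusted p = 0.0388), both genes of cerebellar granule cells, were among the 4 genes called lower or higher in hu/hu mice. The part of the dissection in these calls was not tested. The noradrenaline neuron markers summed to 17.7 to 25.3 TPM in midbrain at E18.5, and the hypothalamic markers to 56.7 to 128 TPM there and to 341 to 436 TPM at P21, so the serotonin genes were measured in pieces that also held neighbouring tissue.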
